A study of Mus musculus with 12 samples.

Results

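The genes described here encode 7 enzymes of cholesterol synthesis: Hmgcs1, Idi1, Fdps, Fdft1, Sqle, Lss and Cyp51. They were taken by symbol from a table of 56748 mouse genes, and each symbol matched 1 row. They were picked by name, with earlier results of these data known. RNA was sequenced from rod photoreceptors and from whole retina of mice with and without pyruvate kinase M2 in rods. The samples formed 4 groups of 3 libraries each.

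Rod RNA came from Rod-TRAP, in which a tagged ribosomal protein (RiboTag) is switched on by a Cre recombinase under the rhodopsin promoter (i75-Rod-Cre), and tagged ribosomes are pulled down with the RNA they are translating. This fraction is called rods. The RNA of the same kind of lysate before the pulldown is called retina. Control mice were RiboTag;Pkm2fl/+;i75-Rod-Cre, so they carried the Cre and 1 floxed Pkm2 allele, and Pkm2Rodko mice were RiboTag;Pkm2fl/fl;i75-Rod-Cre. The titles name the control libraries wt, whereas their genotype label is Pkm2_Rodhet, and no group lacked the Cre. All mice were littermates, all tissue was frozen after perfusion with cycloheximide, which holds ribosomes on RNA, and polyA RNA was sequenced. The deposited description gives an age of 2 weeks and the study's methods give 2 months for TRAP, so the age is uncertain. How many mice went into a library is not given in the sources used here, and p-values measure only the spread between these libraries.

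Cholesterol is built from acetyl-CoA. Hmgcs1 acts near the start of the mevalonate part of the pathway, Idi1 and Fdps make and join the isoprene units, and farnesyl diphosphate then leaves either for protein prenylation, dolichol and coenzyme Q or for sterols. Fdft1 (squalene synthase) is the first enzyme committed to sterols, Sqle and Lss oxidise squalene and fold it into lanosterol, and Cyp51 removes a methyl group from lanosterol. The genes share a regulator, the SREBP transcription factors, which are held in the endoplasmic reticulum by Insig proteins while sterols are plentiful and are released through Scap when sterols run low. The retina makes part of its cholesterol itself and takes up the rest from the blood, and glia as well as neurons make it.

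To show regulatory letters of these genes, the promoters were read from the RefSeq promoter table (build GRCm38.p6), which held 4 of the 7 genes. Capitals mark each CCAAT box, the letters bound by NF-Y, on either strand (ATTGG is the same box on the other strand) and the SREBP consensus TCACNCCAC. For Hmgcs1 the whole 300 bases are shown because it alone held the SREBP consensus, at chr13:119690101-119690400 on the plus strand, running from 250 bases before the start. Coordinates are those of the table, not of the build named for the reads. The other promoters are shown over the 100 bases before their start, at chr13:8885506-8885605 on the plus strand (Idi1), chr10:76531505-76531604 on the plus strand (Lss) and chr5:4104698-4104797 on the minus strand (Cyp51).
Hmgcs1: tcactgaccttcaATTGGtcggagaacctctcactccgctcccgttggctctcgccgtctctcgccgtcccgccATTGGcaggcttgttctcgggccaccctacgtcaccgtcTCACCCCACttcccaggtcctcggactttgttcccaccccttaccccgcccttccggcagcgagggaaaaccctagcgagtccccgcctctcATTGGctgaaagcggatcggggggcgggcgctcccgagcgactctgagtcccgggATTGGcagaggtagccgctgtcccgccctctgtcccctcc
Idi1: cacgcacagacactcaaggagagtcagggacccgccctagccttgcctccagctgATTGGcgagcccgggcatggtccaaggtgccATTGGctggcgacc
Lss: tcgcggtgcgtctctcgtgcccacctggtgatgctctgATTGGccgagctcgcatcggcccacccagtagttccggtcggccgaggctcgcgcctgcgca
Cyp51: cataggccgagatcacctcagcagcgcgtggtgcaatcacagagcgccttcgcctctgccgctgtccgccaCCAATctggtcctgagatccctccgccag
A CCAAT box was present in 4 of the 4 promoters, and in 37.4% of the 32851 promoters of the table. The Sp1 letters GGGCGG, sought on both strands as were all the motifs, were also present in 4 of 4, against 35.7% of all promoters. TCACNCCAC was present in 1.24% of all promoters and, together with a CCAAT box, in 0.441%. The E-box CACGTG was in none of the 4 and in 7.15% of all. Among the promoters of the other sterol lists described below, the consensus was in 0 of the 13 other cholesterol synthesis enzymes and 0 of the 10 sterol sensing genes that the table held, some of them with several starts. These are matches of letters in windows of 300 bases. Only this 1 form of the SREBP letters was sought, so a promoter without it may hold another form.

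Libraries held between 13458890 and 22790074 reads on genes. The deletion was visible in Pkm, which encodes both pyruvate kinase M isoforms and whose gene-level row keeps the reads of the undeleted exons. On a scale common to the 12 libraries, Pkm stood at 65101 to 70318 reads in control rods and at 28253 to 30486 in Pkm2Rodko rods, a log2 difference of -1.20 (SE 0.0838, limma adjusted p = 5.36e-05), and it was lower in Pkm2Rodko retina by a log2 difference of -0.65 (SE 0.0742, adjusted p = 0.0219). The pulldown was checked with 20 rod markers, all higher in rods than in retina in control mice (median log2 difference 1.91), and with 12 Müller glia markers, all lower (median -2.87).

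On the common scale the 7 enzymes together stood at similar levels in rods and in whole retina, and with the deposited values they stood lower in rods. On the common scale their summed reads were 5161 to 5764 in control rods, 5594 to 5883 in Pkm2Rodko rods, 5146 to 6000 in control retina and 5174 to 5417 in Pkm2Rodko retina. The summed deposited values were 4000 to 4520 in control rods and 6089 to 7108 in control retina, with no overlap, and 4358 to 4632 and 6127 to 6442 in Pkm2Rodko mice. For comparison, on the common scale the summed rod markers were at least 4913870 in every rod library and at most 1408298 in any retina library.

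**Figure D1:**
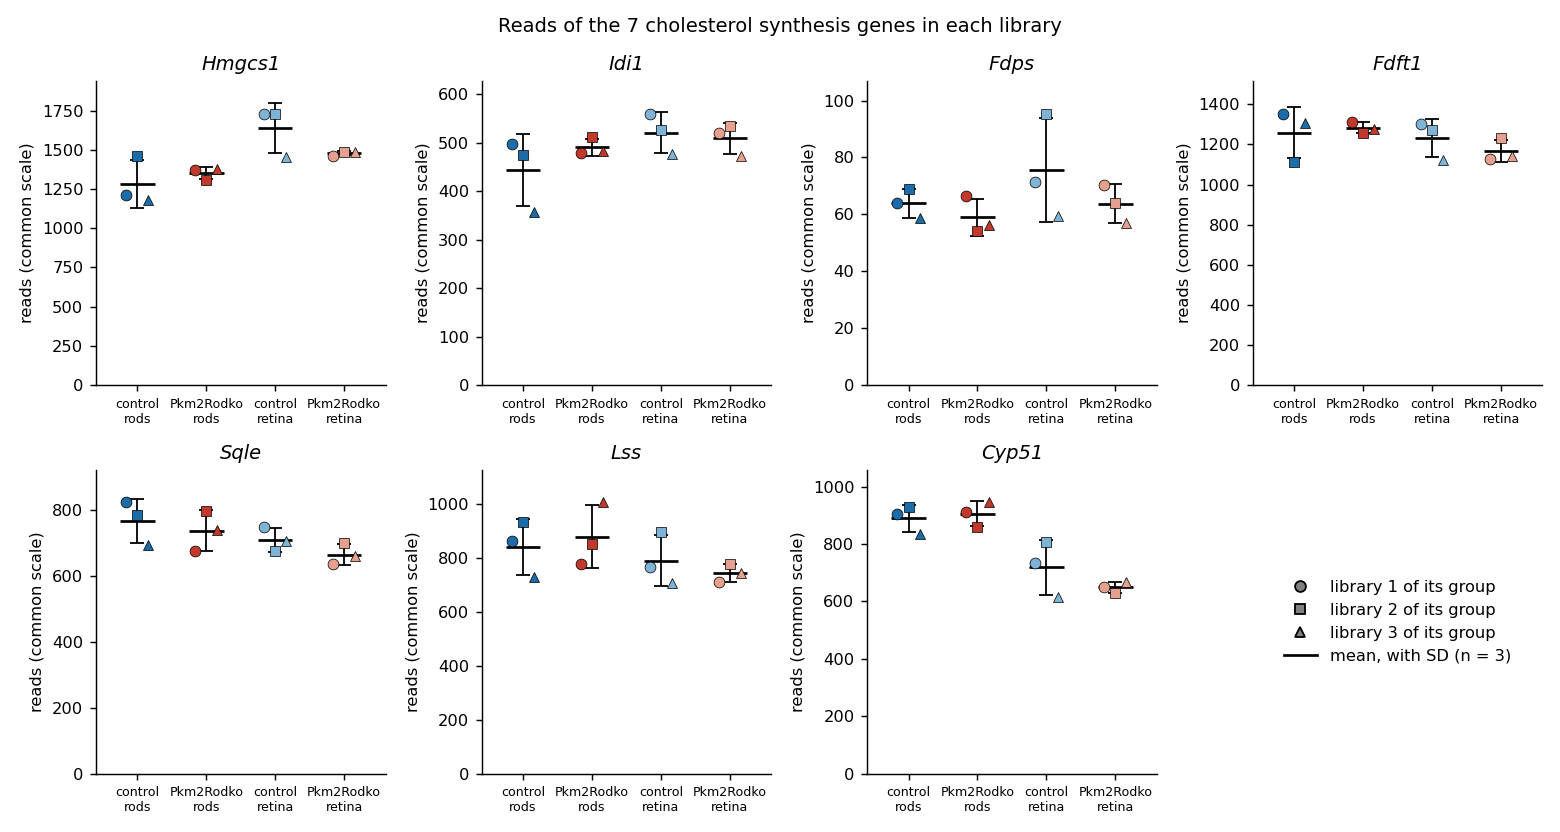
Reads on the common scale (y axis, from 0) for the 7 genes in each of the 12 libraries, with a panel for each gene and the 4 groups on the x axis. Points are libraries, with the shape giving the library number, and lines are the mean with its SD (n = 3). Cyp51 was at 835 to 928 in control rods against 616 to 808 in control retina, and control library 3 (triangle) was the lowest of its group for Hmgcs1, Idi1, Fdps, Lss and Cyp51 in both fractions.

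Levels can be compared between genes only per length, so common-scale reads were divided by the length of each gene's merged exons (GENCODE vM21). The annotation behind the deposited values is not given in the sources used here, and the order depends on these lengths. That of Lss was 10787 bases, and those of the others ran from 3505 (Idi1) to 5546 (Sqle). Reads of Fdps may be split with near-identical copies, as described below. In control rods the order was Fdft1 (298 ± 30.0 reads per kb, SD, n = 3), Hmgcs1 (280 ± 33.3), Cyp51 (201 ± 11), Sqle (138 ± 12), Idi1 (126 ± 21.4), Lss (77.8 ± 9.55) and Fdps (15.2 ± 1.19). The libraries of Fdft1 and Hmgcs1 overlapped, as did those of Sqle and Idi1, and the other neighbours in this order did not. Control retina had Hmgcs1 first (357 ± 34.4), above Fdft1 (291 ± 22.8) in every library, then Cyp51 (163 ± 21.8) and Idi1 (149 ± 11.9), which overlapped, and then Sqle (128 ± 6.57), Lss (73.2 ± 8.81) and Fdps (17.9 ± 4.34). Pkm2Rodko mice had the same leading gene in each fraction as controls. Fdft1 and Hmgcs1, the highest of the 7 in control rods, lay above 87.6% and 87.1% of the genes tested between rods and retina that had a known length.

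The first question was whether rods and whole retina differ in these enzymes. In control mice 1 of the 7, Cyp51, was higher in rods and 1, Hmgcs1, was lower. Over all 25584 genes tested, 23.5% were called higher and 35.5% lower. In Pkm2Rodko mice 1 was higher, again Cyp51, and 0 lower, against 23.9% and 35.1% of all genes. Libraries of the fractions did not overlap for 1 of 7 in control mice, where this held for 61.8% of all genes, and for 4 of 7 in Pkm2Rodko mice, against 63.0%. The other values lay between -0.24 and 0.23 on the log2 scale, and the signs of 4 members depended on how the fractions were scaled, as described after the single genes.

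Hmgcs1, the cytosolic synthase that forms HMG-CoA, had 1213, 1461 and 1181 reads on the common scale in control rods and 1730, 1732 and 1457 in control retina. Rods were lower by a log2 difference of -0.35 (SE 0.0914, limma adjusted p = 0.00353), although the highest rod library reached just above the lowest retina library. In Pkm2Rodko mice the values were 1370, 1311 and 1378 in rods and 1464, 1484 and 1487 in retina, with no overlap between the fractions, but the log2 difference of -0.13 (95% interval -0.32 to 0.07, adjusted p = 0.243) did not pass the test.

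At the other end of the group stood Cyp51, lanosterol demethylase. Its reads were 904, 928 and 835 in control rods and 732, 808 and 616 in control retina, with every rod library above every retina library. This gave a log2 difference of 0.31 (SE 0.0973, limma adjusted p = 0.0114). Pkm2Rodko rods had 912, 858 and 945 reads and Pkm2Rodko retina 649, 629 and 669, a log2 difference of 0.48 (SE 0.0973, adjusted p = 0.000521), again without overlap. The control difference fell short of the threshold when control retina library 3 was left out (log2 0.21, adjusted p = 0.0666), and stood at 0.25 (adjusted p = 0.0493) when control library 3 of both fractions was left out.

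Cyp51 and Hmgcs1 can also be set against each other inside a library, which removes the choice of scale. The ratio of Cyp51 to Hmgcs1 reads was 0.745, 0.636 and 0.707 in control rods and 0.423, 0.466 and 0.423 in control retina. In Pkm2Rodko mice it was 0.666, 0.655 and 0.685 in rods and 0.444, 0.424 and 0.450 in retina. Every rod library therefore had a higher ratio than every retina library in both genotypes, and the rod libraries of the genotypes overlapped. This pair was chosen after its values were seen, so the ratio has no test.

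Idi1, the isomerase of the isoprene units, followed Hmgcs1. Control rods had 498, 474 and 358 reads and control retina 560, 526 and 477, which overlapped, with a log2 difference of -0.24 (95% interval -0.50 to 0.01, limma adjusted p = 0.0888). Rod and retina libraries with the same number deviated together and were taken to come from the same mice, a pairing that the fit used for the main results leaves out. With the animal as a block the Idi1 difference had the same size (-0.24) and passed the test (limma adjusted p = 0.0307). It also passed without control rod library 1 or 2 (adjusted p = 0.0458 and 0.0442, log2 -0.32 each). Pkm2Rodko rods had 479, 511 and 482 reads and Pkm2Rodko retina 520, 534 and 473, a log2 difference of -0.05 (adjusted p = 0.73).

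Fdft1, squalene synthase, had 1354, 1115 and 1307 reads in control rods and 1303, 1270 and 1122 in control retina, which overlapped (log2 difference 0.03, 95% interval -0.16 to 0.22). In Pkm2Rodko mice the 1314, 1259 and 1278 reads of rods lay above the 1126, 1230 and 1144 of retina, with a log2 difference of 0.14 (-0.05 to 0.33, limma adjusted p = 0.189). Sqle, squalene epoxidase, overlapped between the fractions in both genotypes. It had 822, 785 and 693 reads in control rods, 747, 674 and 705 in control retina, 674, 796 and 739 in Pkm2Rodko rods and 634, 698 and 659 in Pkm2Rodko retina, with log2 differences of 0.11 (95% interval -0.09 to 0.31) and 0.15 (-0.05 to 0.35).

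Lss, lanosterol synthase, overlapped in control mice, with 860, 931 and 728 reads in rods and 766, 894 and 708 in retina (log2 difference 0.09, 95% interval -0.16 to 0.34). In Pkm2Rodko mice rods had 778, 849 and 1005 reads and retina 710, 778 and 744. The lowest rod library and the highest retina library nearly met, and the log2 difference was 0.23 (-0.02 to 0.48, limma adjusted p = 0.104). On the common scale this difference passed the test only with the animal as a block (limma adjusted p = 0.0254).

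Fdps, farnesyl diphosphate synthase, was the least abundant of the 7 and is the least certain. It had 63.9, 68.8 and 58.8 reads in control rods, 71.5, 95.4 and 59.5 in control retina, 66.4, 54.3 and 56.3 in Pkm2Rodko rods and 70.4, 63.9 and 56.9 in Pkm2Rodko retina, and the fractions overlapped in both genotypes. The log2 differences were -0.21 (95% interval -0.67 to 0.24) and -0.11 (-0.56 to 0.35). The annotation holds 6 near-identical copies of it, 5 of them processed pseudogenes, and the copies drew 134% of the reads that Fdps itself drew over the 12 libraries. Gm3571 alone, 98.9% identical over 1062 bases, drew 759 reads against 794, so reads of 1 source may be split between these rows.

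With the copies added to Fdps, control rods had 164 ± 3.51 reads and control retina 160 ± 40.2 (SD, n = 3), and the log2 difference became 0.06 (limma adjusted p = 0.768). In Pkm2Rodko mice the sums were 175 ± 16.2 in rods and 133 ± 6.71 in retina, no library overlapped, and the log2 difference became 0.39 (adjusted p = 0.0506). The sign of the Fdps difference thus turned in both genotypes. For Idi1 the copies drew 13.6% of the member's reads and for Fdft1 2.46%, and no rods-to-retina sign turned when they were added. No copy at or above 90% identity was found for Hmgcs1, Sqle, Lss or Cyp51.

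**Figure D2:**
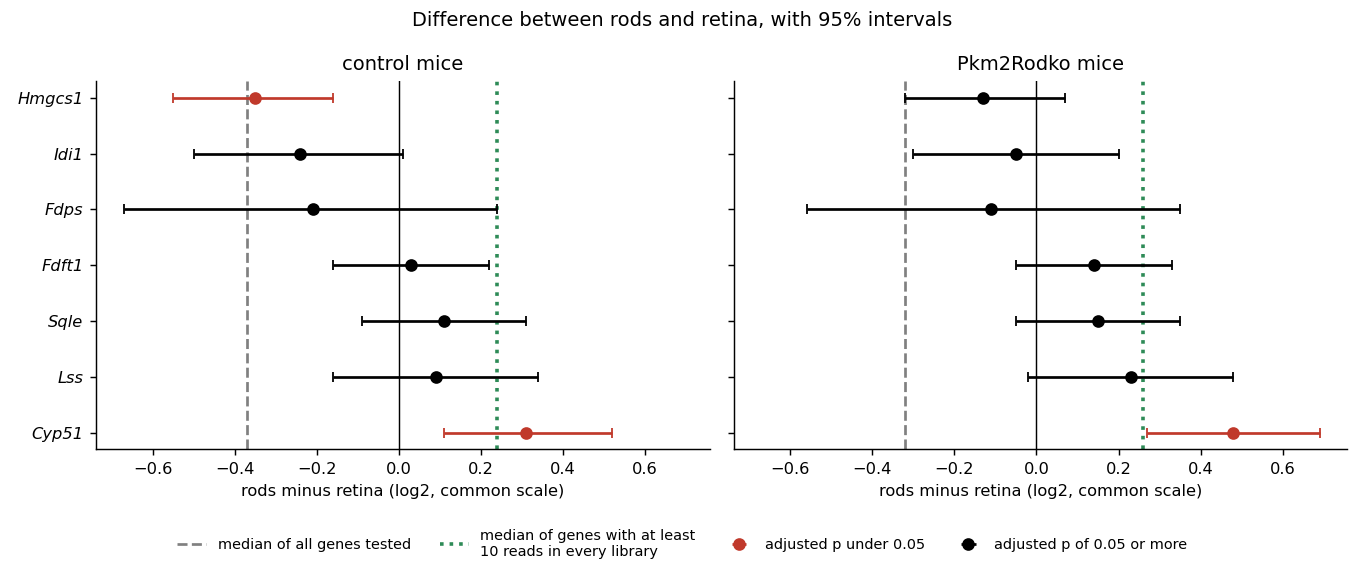
Log2 difference between rods and retina (x axis, common scale) with its 95% interval for the 7 genes, ordered by their step in the pathway, in control (left) and Pkm2Rodko mice (right). Red marks an adjusted p under 0.05. The dashed line is the median of all genes tested (-0.37 and -0.32) and the dotted line that of genes with at least 10 reads in every library (0.24 and 0.26).

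In pathway order, on the common scale, the 3 enzymes before squalene had negative rods-to-retina values in control mice and the 4 from squalene synthase on had positive ones. The reads of Hmgcs1, Idi1 and Fdps made up 31.0% to 34.8% of the reads of all 7 in control rods and 39.3% ± 0.614 (SD, n = 3) in control retina, where the lowest library stood at 38.7%. In Pkm2Rodko mice the shares were 32.6% to 34.2% and 38.4% to 39.7%, so the fractions did not overlap in either genotype. These shares do not depend on how libraries were scaled. The split was noticed in these values and has no test. It did not hold in control mice with the near-identical copies added to Fdps (log2 difference 0.06), nor with median-of-ratios scaling (RLE), where Fdft1 was at -0.03. Most of the reads before squalene were those of Hmgcs1, with a mean of 1285 in control rods against 443 for Idi1 and 63.8 for Fdps. Other enzymes that act before squalene, named after their values were seen, had both signs in control mice. Mvd was higher in rods (log2 difference 0.57, limma adjusted p = 0.00508) and Acat2 lower (-0.34, adjusted p = 0.0345), while Mvk (0.19, adjusted p = 0.18) and Pmvk (0.35, adjusted p = 0.108) did not pass. Idi2 (-0.26, adjusted p = 0.653) was barely detected, with 0 reads in every control rod library and 0 to 1 in control retina.

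How the libraries were scaled decided the signs of Fdft1, Sqle, Lss and Cyp51, whereas Hmgcs1, Idi1 and Fdps were negative in both genotypes under the 4 scalings tried. The deposited values, 1 of the 4, were scaled within each fraction, so they do not bring the fractions to 1 scale. A few photoreceptor genes take a large part of the reads of rods, so a scale that equates totals lowers all other genes there. With trimmed means (TMM), used here, the median log2 difference of all genes in control mice was -0.37 and that of the members 0.03. With total reads the medians were -0.76 and -0.52, with the deposited values -0.80 and -0.57, and 7 of 7 members were then called lower in control mice and 6 of 7 in Pkm2Rodko mice. Of all genes, 49.1% were called lower and 8.43% higher in control mice with total reads (25895 tested), and 50.7% and 7.48% with deposited values (25949 tested). In Pkm2Rodko mice 48.8% were called lower and 8.49% higher with total reads, and 49.4% and 8.0% with deposited values.

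Relative to the median of all genes, Cyp51 lay 0.52 to 0.68 above in control mice under the 4 scalings (TMM, median of ratios (RLE), total reads and deposited values), and Hmgcs1 at -0.15 to 0.01. That median itself turned with the floor on reads. Among genes with at least 10 reads in every library it was 0.24 in control mice, so that Cyp51 lay 0.08 above it and the other 6 members below it, Hmgcs1 by the most (-0.59). In Pkm2Rodko mice the same median was 0.26, with Cyp51 0.21 above it and Hmgcs1 at -0.39.

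**Figure D3:**
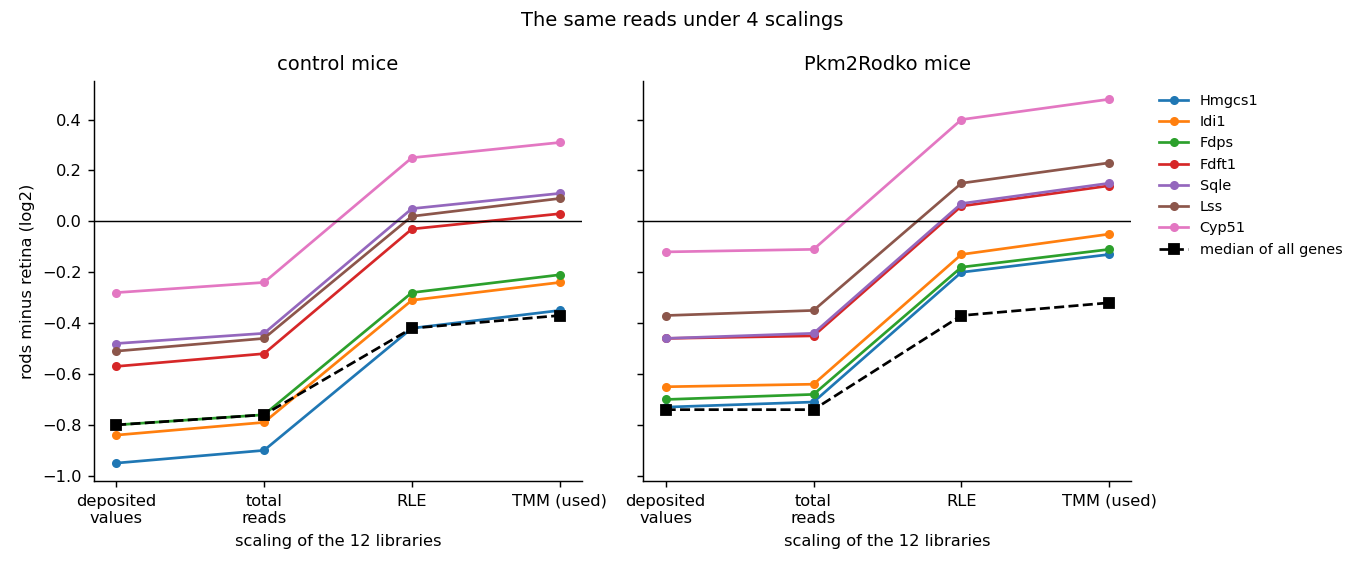
Log2 difference between rods and retina (y axis) of the 7 genes (coloured lines) and the median of all genes (black dashed) when the same reads are scaled in 4 ways (x axis), in control (left) and Pkm2Rodko mice (right). The deposited values were scaled within each fraction and not to 1 scale. The order of the genes was nearly the same at each scale, with Cyp51 on top and Hmgcs1 at the bottom, whereas Cyp51 went from -0.28 with deposited values to 0.31 with TMM in control mice.

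Markers of other cells showed how different the enzymes were from genes of a single cell type. In control mice the median log2 difference between rods and retina was 0.03 for the 7 enzymes, 1.91 for rod markers, -0.70 for 10 cone markers, -2.87 for Müller glia markers and -3.13 for 10 bipolar cell markers. Even under the scaling by deposited values, where the enzymes' median was -0.57, those of rod and Müller glia markers were 1.32 and -3.46. The enzymes therefore lay between the rod and the Müller glia markers under both scalings. So did the median of all genes (-0.37 on the common scale and -0.80 with deposited values), so this position is not particular to the enzymes. A difference between rods and retina sets translated RNA of 1 cell type against total RNA of all, so cell type, translation and pulldown cannot be told apart, and neither can fewer cells of a type and less RNA per cell.

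The second question was whether the enzymes change when rods lose pyruvate kinase M2. None of the 7 was called in rods, where 0.0194% of the 20658 genes tested passed (4, all lower), and none in retina, where 0.00391% of 25590 passed (1, lower). At an unadjusted p under 0.05 there were 0 of 7 in each fraction, and edgeR and DESeq2 also called 0. Libraries of the genotypes overlapped for 7 of 7 in both fractions, whereas 9.89% of all genes in rods and 9.29% in retina did not overlap.

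In rods the log2 difference between Pkm2Rodko and control mice, on deposited values plus 1, was 0.09 for Hmgcs1 (95% interval -0.13 to 0.31), 0.17 for Idi1 (-0.13 to 0.47), 0.04 for Fdft1 (-0.17 to 0.25) and 0.07 for Lss (-0.20 to 0.35). It was 0.03 for Cyp51 (-0.18 to 0.25), -0.05 for Sqle (-0.29 to 0.19) and -0.11 for Fdps (-0.60 to 0.39). Their median was 0.04 and that of all genes 0.01. The intervals are widest for Fdps and Idi1 and narrower for Fdft1 and Cyp51.

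In retina all 7 values were negative, from -0.20 for Fdps (95% interval -0.66 to 0.25) to -0.02 for Idi1 (-0.22 to 0.19), with a median of -0.08 against 0.00 for all genes. Hmgcs1 had -0.13 (-0.31 to 0.05) and Cyp51 -0.12 (-0.34 to 0.10), and the remaining 3 lay between -0.08 and -0.06. Adjusted p-values (limma) were at least 0.947. Relative to the mean of the fraction, control retina library 2 had a mean deviation of 0.17 over the 7 genes and library 3 of -0.11, on the log2 scale.

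Control library 3 was low in rods as well, with a mean deviation of -0.16 and 1 of 7 genes above the mean of the fraction, and Idi1 stood furthest below it (-0.39). The Pkm2Rodko libraries deviated by -0.01 to 0.05 in rods and -0.07 to -0.02 in retina. On the common scale the SD of control libraries was larger than that of Pkm2Rodko libraries for 5 of 7 genes in rods and 7 of 7 in retina. For Hmgcs1 it was 153 against 36.9 reads in rods and 158 against 12.8 in retina, whereas for Lss it was 103 against 116 in rods and for Cyp51 48.6 against 43.6. Each SD rests on 3 libraries, and most of the genes deviated together in control library 3, so these counts are not of separate observations. The share of all genes with a larger SD in control libraries was not computed. Without control rod library 3 the genotype values of Lss and Cyp51 in rods were -0.03 and -0.02.

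**Figure D4:**
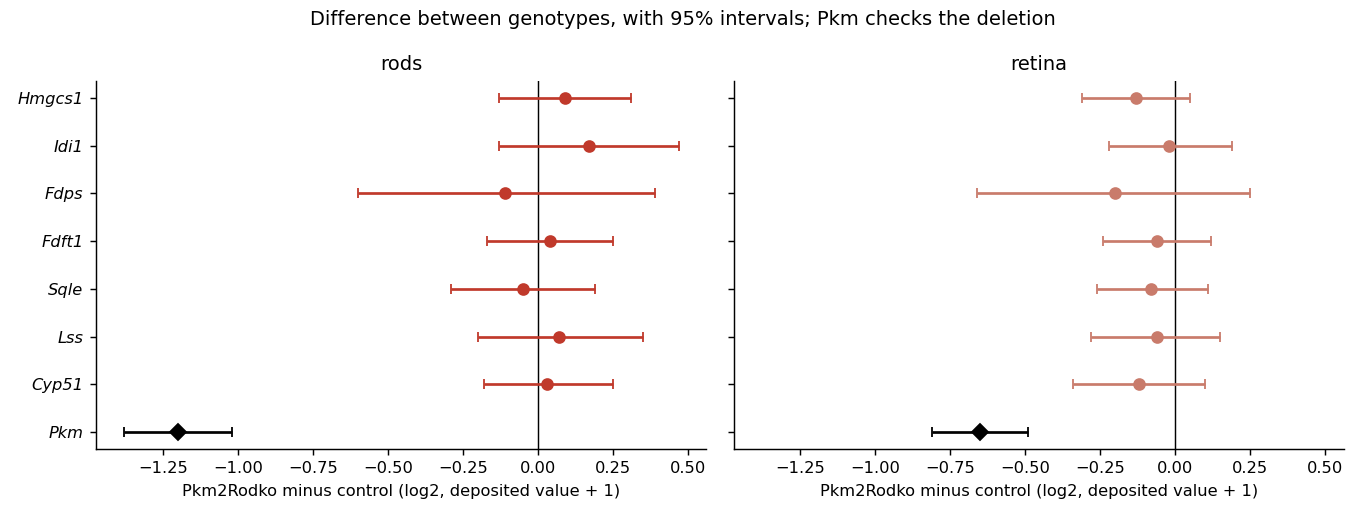
Log2 difference between Pkm2Rodko and control mice (x axis, deposited value plus 1) with its 95% interval in rods (left) and retina (right) for the 7 genes in pathway order and for Pkm. All 14 intervals of the enzymes span 0, whereas those of Pkm lie at -1.38 to -1.02 in rods and -0.81 to -0.49 in retina.

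The genotype difference in rods minus that in retina was positive for each of the 7, from 0.04 (Sqle, 95% interval -0.24 to 0.32) to 0.23 (Hmgcs1, -0.05 to 0.50), with a median of 0.14 against 0.01 for all genes. It was called for 0 of 7, and 0.0% of the 25584 genes passed (limma), with 1128 genes (4.41%) and 0 members at an unadjusted p under 0.05. DESeq2 called 1 gene of all and edgeR 0, and neither called a member.

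Markers of other cells had mostly negative genotype values in the pulldown, although none of those given here passed the test. The summed Müller glia markers were 9177 to 12112 reads on the common scale in control rods and 8260 to 9347 in Pkm2Rodko rods, and 11 of the 12 had a negative genotype value in rods (median -0.32, 0 called by limma). The bipolar markers had a median of -0.48 (0 of 10 called) and the rod markers one of 0.06 (0 of 20 called). At an unadjusted p under 0.05 there were 5 of the Müller glia, 5 of the bipolar and 0 of the rod markers, and 4.77% of all genes. No defining marker of these lists was at 0 in every library of a group, and the part of carried-over RNA in the values of the enzymes was not tested.

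The rest of the pathway was read from 15 other cholesterol synthesis enzymes. In control mice 5 of these were called higher and 3 lower in rods than in retina, where 23.5% of all genes were called higher and 35.5% lower. Dhcr7, a sterol reductase of the last steps, had the highest rods-to-retina value of the 15, with 910, 1104 and 929 reads in control rods and 500, 491 and 437 in control retina (log2 difference 1.04, SE 0.103, limma adjusted p = 3.35e-07). The sterol isomerase Ebp was also higher in rods (0.88, adjusted p = 0.000102), as was Hsd17b7 (0.59, adjusted p = 0.00203), while the sterol reductase Tm7sf2 (-1.39) and the thiolase Acat2 (-0.34) were lower. With deposited values Dhcr7 and Ebp kept positive values (0.44 and 0.29), and Hsd17b7 stood at -0.01.

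Genes that sense sterols and control the pathway went both ways. Of 10, in control mice 6 were called higher in rods and 3 lower, against the same shares of all genes. Srebf1, whose SREBP-1 products drive mainly fatty acid synthesis, had 3857, 3664 and 3668 reads in control rods and 1479, 1613 and 1631 in control retina (log2 difference 1.24, SE 0.0819, limma adjusted p = 3.55e-09). Scap, the escort of SREBPs (1.13), and the oxysterol receptor Nr1h2 (1.02) were higher too. All 3 stayed positive with deposited values, at 0.42 to 0.65.

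Srebf2, whose product is the main activator of the 7 enzymes, was lower in rods. It had 1567, 1418 and 1671 reads in control rods and 2557, 2433 and 2868 in control retina (log2 difference -0.75, SE 0.0852, limma adjusted p = 1.53e-06), with -0.72 in Pkm2Rodko mice. Insig1, the retention factor, had 193, 295 and 219 reads in control rods and 1317, 1165 and 1246 in control retina (-2.41, adjusted p = 5.37e-10), and Insig2 had -0.27 (adjusted p = 0.0229). On the common scale Srebf2 and Insig1 were thus lower in rods than in retina, while the 7 enzymes were near parity (median 0.03 in control mice). With deposited values the enzymes' median was -0.57. A link between the RNA levels of these regulators and of the enzymes was not tested.

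Uptake, transport and turnover genes were spread the widest: of 17, in control mice 5 were higher and 10 lower in rods, with a median of -0.95. Of all genes, 23.5% were called higher and 35.5% lower. Npc1, which exports cholesterol from lysosomes, had 4254, 5095 and 4310 reads in control rods and 1626, 2063 and 1659 in control retina (log2 difference 1.36, SE 0.101, limma adjusted p = 1.42e-08). The exporter Abcg1 (1.29) and the lipoprotein receptor Vldlr (1.01) were higher as well, and all 3 stayed positive with deposited values (0.42 to 0.76). Among the lowest were the lysosomal lipase Lipa (-3.48), the endocytic receptor Lrp1 (-3.23) and the bile acid hydroxylase Cyp27a1 (-3.18). Cyp46a1, the hydroxylase that turns cholesterol over in neurons, was at 133, 106 and 82.7 reads in control rods and 180, 166 and 189 in control retina (-0.75, adjusted p = 0.00148).

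Genes of the isoprenoid branch, which use farnesyl diphosphate for prenyl groups, dolichol and coenzyme Q, were mostly higher in rods on the common scale. In control mice 7 of 11 were called higher and 1 lower, with a median of 0.68, where 23.5% of all genes were called higher and 35.5% lower. Rce1, which trims prenylated proteins, had 1213, 1023 and 1398 reads in control rods and 411, 387 and 414 in control retina (log2 difference 1.57, SE 0.1, limma adjusted p = 2.54e-09). Icmt, which methylates them next, had 1.27, and the farnesyltransferase subunit Fntb 1.16. The lowest 3 were Nus1 (-0.27, adjusted p = 0.0234), Pdss1 (-0.11, adjusted p = 0.708) and Coq2 (0.07, adjusted p = 0.61). With deposited values 3 of the 11 were higher and 4 lower, against 7.48% and 50.7% of all genes.

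Fatty acid synthesis, which shares acetyl-CoA and SREBPs with this pathway, had 4 of 8 genes higher and 4 lower in control rods, against 23.5% and 35.5% of all genes. Me1 (log2 difference 0.87), Acly (0.86) and Acss2 (0.63), which supply NADPH or acetyl-CoA, were higher, while the elongase Elovl6 (-2.35) and the desaturases Scd1 (-2.25) and Scd2 (-0.93) were lower (limma adjusted p at most 8.38e-05 for the 6).

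**Figure D5:**
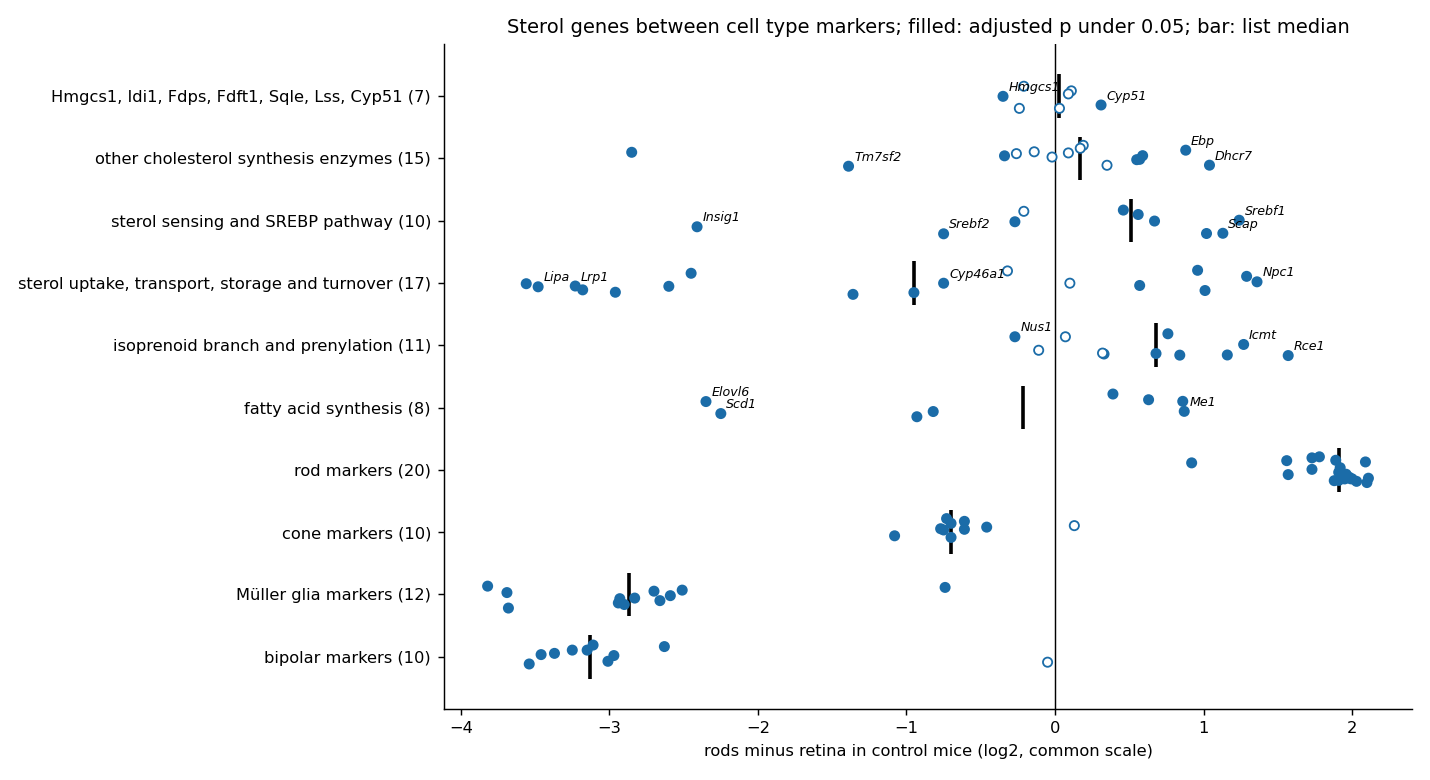
Log2 difference between rods and retina in control mice (x axis, common scale) for each gene of 6 metabolic lists and 4 lists of cell type markers (y axis, number of genes in brackets). Filled points passed the test at an adjusted p under 0.05, bars are list medians, and vertical scatter within a list has no meaning. The 7 enzymes lie between -0.35 and 0.31, whereas Insig1 lies beyond -2 and rod markers near 2.

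As for the 7 enzymes, the counts of these lists moved with the scale. With deposited values, the genes called higher and lower in control rods were 1 and 8 of the other synthesis enzymes, 3 and 4 of the sensing genes, 4 and 12 of the uptake and turnover genes and 2 and 4 of the fatty acid genes. Of all genes, 7.48% and 50.7% were then called higher and lower.

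No gene of these 5 lists passed the test between genotypes in rods (61 genes tested by limma) or in retina (60). At an unadjusted p under 0.05 there were 3 in rods, among them Lbr, a sterol reductase of the nuclear envelope (log2 difference 0.38, adjusted p = 0.932), and 7 in retina, where 4.77% and 4.18% of all genes stood at that threshold. Srebf2 had 0.08 in rods and 0.05 in retina, and Cyp46a1 0.04 and -0.03.

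By a fixed rule, the 5 genes whose pattern over the 12 libraries was most like the mean standardised pattern of the 7 enzymes were named, as a description without a test. These were Gpr155 (Pearson r = 0.883, n = 12), ENSMUSG00000119966 (0.871), Usp28 (0.854), Gpc2 (0.82) and Gm42436 (0.813). Gpr155 had means of 345 reads in control rods and 320 in control retina, and Usp28 of 330 and 319. The others had few reads, with means of 14.7 and 13.9 (ENSMUSG00000119966), 15.3 and 16.8 (Gpc2) and 4.34 and 4.2 (Gm42436). Similar levels in the fractions follow from how these genes were picked. The 12 libraries share a scaling, and the fractions were taken to share mice, so these values are not independent.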

How the data were processed

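RNA from Rod-TRAP pulldown (rods) and from input lysate (retina) was sequenced in 12 libraries of 4 groups (n = 3), grouped by their labels. The values deposited by the authors are a signal: the reads of a gene in a library over a size factor set within the fraction (median of ratios), with 1 decimal kept. Whole reads were recovered from it: 100.0% of positive values were whole within 0.1 read. The submitters' processing notes name CASAVA 1.8.2, HISAT2, DESeq2, edgeR and build GRCm39. The counter, annotation and use of strand are not given in the sources used here, so antisense reads cannot be told apart.

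Genotypes were compared within a fraction with limma 3.58.1 (trend) on log2(deposited value + 1), keeping genes with a mean of at least 1 in a genotype. Fractions, and the difference of genotype effects, were compared with limma over the 4 groups on log2(reads + 1) after edgeR 4.0.16 TMM over all 12 libraries (the common scale), with the same floor. The study's methods name no RNA-seq test. P-values were adjusted over all genes (Benjamini-Hochberg, 0.05), and a gene is called when it passes. Alternatives were edgeR quasi-likelihood and DESeq2 1.42.0 on recovered reads, a pseudocount of 0.1, other floors, other scalings, blocks and left-out libraries, and, chosen after seeing the data, adding near-identical copies and leaving out control library 3 of both fractions. The code was tested on simulated data.

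Rods and retina libraries with the same number deviated together (r = 0.273 to 0.556 over 12730 genes), so the numbers were taken to pair the fractions. Other numbers gave at most -0.038. Deviations were taken from the mean of each group of 3, so these negative values follow in part from the positive ones. Copies were found by aligning GENCODE vM21 transcripts (at least 90% identity over 200 bases). The members and lists were chosen with earlier results of these data known. Named were all members; in the 5 sterol and lipid lists, genes past a genotype threshold, the 3 highest and 3 lowest rods-to-retina values in control mice and a few fixed genes; and the 5 most alike in pattern. Some genes that this rule names are not reported here.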

Additional observations from a re-analysis of the deposited data

How the results depend on the processing

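There were 3 libraries a group and 37 to 2081 reads on a member in a library. Between genotypes 0 of 7 members were called under any alternative run, and likewise for the difference of the genotype effects. The calls depended on the scale of the fractions: with total reads or with deposited values 7 members (all lower) were called in control mice, against 2 with TMM, and 6 (all lower) in Pkm2Rodko mice, against 1, where 48.8% to 50.7% of all genes were called lower. With total reads the log2 differences of Fdft1, Sqle, Lss and Cyp51 turned to -0.52, -0.44, -0.46 and -0.24 in control mice and to -0.45, -0.44, -0.35 and -0.11 in Pkm2Rodko mice. With deposited values they were -0.57, -0.48, -0.51 and -0.28, and -0.46, -0.46, -0.37 and -0.12. In control mice Fdft1, near 0, was -0.03 with RLE and -0.04 with DESeq2. Adding near-identical copies turned Fdps to 0.10 between genotypes in rods and to 0.06 and 0.39 between the fractions in control and Pkm2Rodko mice, and Idi1 to 0.02 between genotypes in retina.

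The replicate block by animal, which pairs the fractions, raised the members called in Pkm2Rodko mice to 2 and in control mice to 3, and changed no other call of a member. Without the block, 59.0% of all genes were called between the fractions in either genotype. The share with the block is not given here, so a general rise in calls cannot be told from one of the members. Control and Pkm2Rodko libraries share only numbers (r = -0.29 to 0.038 for the same number, and no library correlated best with its own number). A replicate block on these numbers moved the genes called from 4 to 8 in rods and from 1 to 0 in retina. DESeq2 called 7 genes in rods, and 1 for the difference of the genotype effects against 0. A single fit of all 12 libraries called 17 in rods. With at least 10 reads in every library 0 were called in retina, and between the fractions 9526 in control and 9651 in Pkm2Rodko mice against 15084 and 15100, since fewer genes were tested.

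Leaving out single libraries, or control library 3 of both fractions, the members called between the fractions were 1 to 3 in control mice and 1 in Pkm2Rodko mice. Of all genes, 13071 to 15151 were then called in control mice and 13922 to 15289 in Pkm2Rodko mice. Between genotypes, leaving out single libraries gave 2 to 6 genes called in rods and 0 to 4 in retina. Log2 values that crossed 0, none of them called, ranged in rods between genotypes from -0.04 to 0.10 (Fdft1), -0.13 to 0.02 (Sqle), -0.03 to 0.16 (Lss) and -0.02 to 0.07 (Cyp51), in retina from -0.08 to 0.03 (Idi1) and -0.14 to 0.03 (Lss), between the fractions in control mice from -0.07 to 0.10 (Fdft1) and -0.01 to 0.19 (Lss), and for the difference of the genotype effects from -0.08 to 0.26 (Fdps) and -0.03 to 0.08 (Sqle). The causes were not tested.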
